A study of Mus musculus with 4 samples.

Results

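Chromatin accessibility was examined at the mouse CC chemokine clusters that hold Ccl2 and Ccl7 and, farther along chromosome 11, Ccl5, Ccl9, Ccl6, Ccl3 and Ccl4. The assay was ATAC-seq, in which a transposase cuts open chromatin and the cut fragments are sequenced. Members were all peaks that overlapped chromosome 11 of GRCm39 from 81.91 to 82.00 Mb (the Ccl2 and Ccl7 cluster) or from 83.40 to 83.57 Mb (the Ccl5 to Ccl4 cluster). This rule used position alone and found 43 of the 57090 peaks, 10 in the Ccl2 and Ccl7 cluster and 33 in the Ccl5 to Ccl4 cluster. The libraries came from bone marrow of femur and of mandible, 2 for each site, each from 20000 cells of 4 pooled mice aged 2 months. Femur replicate 1 and mandible replicate 1 belonged to batch A, and the replicates numbered 2 belonged to batch B. The labels give male mice and CD11b+ cells. The study's methods give C57Bl/6J mice, of both sexes, and a monocyte kit in which unwanted cells are held by antibodies and the unbound cells are kept. No genotype or treatment differed between groups. Each library is a pool, so the spread among individual mice was not measured. Genes were not annotated on GRCm39 here. Single peaks were therefore not tied to single genes, monocyte and other lineage markers were not examined, and peaks carry the numbers of the deposited files.

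CC chemokines are small secreted proteins that draw leukocytes along a gradient through G protein-coupled receptors. CCL2 and CCL7 act on CCR2, the receptor that monocytes need to leave the bone marrow. CCL3 and CCL5 act on CCR1, and CCL4 is a close relative of CCL3. CCL6 and CCL9 are chemokines found in rodents, and both are made by myeloid cells. Genes of this family sit side by side on mouse chromosome 11, and several are transcribed quickly after inflammatory signals that act through NF-κB. The study measured Ccl3 RNA in monocytes of both sites, and accessibility around that gene is one question its ATAC-seq can address. In the RefSeq order of GRCm38.p6, Ccl2 and Ccl7 are followed by Ccl11 and Ccl12, and the other cluster runs Ccl5, Ccl9, Ccl6, Ccl3 and Ccl4.

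Promoters of RefSeq were matched by symbol for 3 of the 7 genes, Ccl3, Ccl6 and Ccl9, and are shown as the starts from which these chemokines are transcribed. Each is 250 bases long, ends just before the gene's start, and is written 5′ to 3′ on the minus strand of chromosome 11 of GRCm38.p6. These positions belong to another build than the peaks and were not placed among them. The Ccl3 promoter lies at chr11:83649379-83649628, the Ccl6 promoter at chr11:83593088-83593337 and the Ccl9 promoter at chr11:83578637-83578886. Capitals mark matches to the letters searched on both strands.
Ccl3: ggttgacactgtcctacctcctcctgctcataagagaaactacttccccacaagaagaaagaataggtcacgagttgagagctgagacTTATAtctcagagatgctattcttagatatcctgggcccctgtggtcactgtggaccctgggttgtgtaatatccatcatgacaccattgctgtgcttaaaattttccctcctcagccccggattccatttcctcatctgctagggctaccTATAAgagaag
Ccl6: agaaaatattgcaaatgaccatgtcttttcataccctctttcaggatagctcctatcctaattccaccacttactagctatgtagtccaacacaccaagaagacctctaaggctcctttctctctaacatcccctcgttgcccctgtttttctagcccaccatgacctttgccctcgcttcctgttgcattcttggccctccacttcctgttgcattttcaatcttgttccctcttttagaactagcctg
Ccl9: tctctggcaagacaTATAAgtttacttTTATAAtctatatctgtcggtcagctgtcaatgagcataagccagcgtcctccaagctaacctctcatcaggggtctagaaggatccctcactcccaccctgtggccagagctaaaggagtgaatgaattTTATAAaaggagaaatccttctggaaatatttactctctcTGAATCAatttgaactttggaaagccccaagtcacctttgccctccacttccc
The letters TGANTCA of AP-1 sites matched the Ccl9 promoter once, from 53 to 47 bases before the start, and 6.75% of the 32851 promoters of the same length held such a match. The kappaB consensus of NF-κB, the letters GAGGAAGT for PU.1 and the letters TTGCNNAA for C/EBP matched none of the 3 promoters, and were held by 0.356%, 2.44% and 9.56% of all promoters. The letters TATAA, chosen after the sequences were seen, matched Ccl3 at 2 and Ccl9 at 5 places, of which 2 pairs overlap on opposite strands, and 22.8% of all promoters held a match. The Ccl6 promoter held no match to any of these letters. A match describes the letters and not a bound site.

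Both clusters held more peaks per 100 kb than chromosome 11 as a whole, and windows around other genes were not compared. The Ccl2 and Ccl7 cluster had 11.1 peaks per 100 kb and the Ccl5 to Ccl4 cluster 19.4, against 3.42 over all of chromosome 11. Peaks took up 6.17% and 9.65% of the bases of the clusters. In the Ccl2 and Ccl7 cluster, 8 peaks lay between 81912307 and 81939167, and after a gap of 52891 bp the last 2 lay 87 bp apart. In the Ccl5 to Ccl4 cluster the longest gap was 14099 bp. Single members were ordinary in size and level. Their median length was 385 bp, against 364 bp over all peaks, and 4 of the 43, or 9.30%, were at least 1000 bp long, against 15.0% of all peaks. Their level was taken as CPM per kb of peak, where CPM is the loess-normalized count relative to the total count in peaks of a library, and had a median of 18.7, against 19.5 over all peaks.

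The highest level per kb belonged to Peak_9372 of the Ccl2 and Ccl7 cluster, at 43.3 CPM per kb, which exceeded 91.1% of all peaks. Peak_9463 followed at 36.6 and Peak_9467 at 34.3 CPM per kb, both in the Ccl5 to Ccl4 cluster. These neighbours in the order overlapped in their ranges over the 4 libraries, and so did every other pair of neighbours among the 43 members. Without scaling to length, Peak_9372 alone held 38.2% of the summed CPM of the Ccl2 and Ccl7 cluster on 19.0% of its peak bases. Peak_9467 and Peak_9463 together held 29.2% of that of the Ccl5 to Ccl4 cluster on 18.2% of its peak bases. Both belong to a run of 6 adjoining peaks, chosen after the values were seen, which spanned 10943 bp from 83529855 to 83540797 and held 35.8% of the summed CPM of the cluster on 33.7% of its peak bases, close to its share by length. The lowest levels belonged to 2 rather long peaks, Peak_9373 at 9.42 and Peak_9466 at 7.96 CPM per kb. The plot of levels by library shows the members in chromosomal order.

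**Figure D1:**
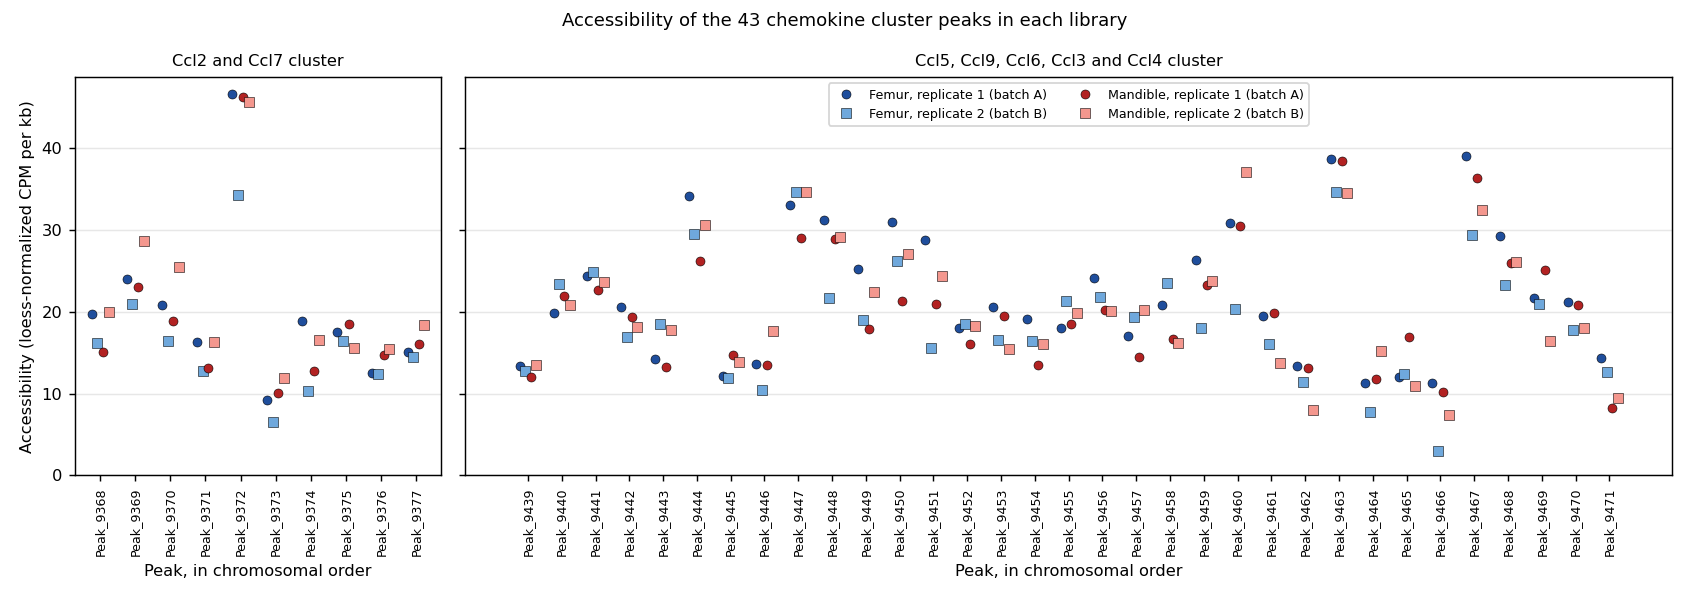
Accessibility of the 43 peaks in loess-normalized CPM per kb (vertical axis) in chromosomal order (horizontal axis), 1 point per library, femur in blue and mandible in red, circles for batch A and squares for batch B. Peak_9372, Peak_9463 and Peak_9467 stand highest on average, and Peak_9466 has its lowest point, 2.95 CPM per kb, in femur replicate 2.

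No member passed the test of mandible against femur. With edgeR's quasi-likelihood test and an adjusted threshold of 0.05, 0 of the 43 peaks were called in either direction, where 0.00701% of all peaks were called, 0.00525% as higher and 0.00175% as lower in mandible. The adjusted p of every member was 0.99999. At an unadjusted threshold of 0.05, 0 of the 43 were reached by edgeR and 0 by DESeq2, where edgeR reached 2.71% of all peaks, 1.61% as higher and 1.1% as lower. The log2 fold change (mandible over femur) ran from -0.61 to 0.51 over the members, and its median was -0.0058, against -0.0044 over all peaks. The 95% interval of the difference included 0 in all 43 peaks. It stayed between -1 and 1 on the log2 scale in 40 of them, and its farthest bound was -1.31, in Peak_9471. An exact two-sided permutation of 2 libraries against 2 can reach no p under 0.333, so the test depends on pooling the spread over peaks.

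In the Ccl5 to Ccl4 cluster, Peak_9467 and Peak_9463 had the highest mean CPM and the narrowest intervals. Peak_9467, 1819 bp long from 83538979 to 83540797, had 71.0 CPM in femur and 66.1 in mandible of batch A, and 53.4 and 59.0 CPM in batch B. Both mandible values lay between the femur values. Mean accessibility was 62.2 ± 12.5 CPM in femur and 62.6 ± 5.0 CPM in mandible (SD, n = 2 each). The log2 difference was 0.0094 with a standard error of 0.140, and its 95% interval, from -0.29 to 0.30, reaches at most 1.24-fold. Peak_9463, from 83530400 to 83531565, had 45.2 CPM in femur and 44.9 in mandible of batch A, and 40.4 and 40.2 CPM in batch B. The sites thus differed by -0.0085 in batch A and -0.0049 in batch B on the log2 scale, the closest match within both batches among the members. The fitted log2 difference was -0.0058 with a standard error of 0.144. Peak_9448, from 83467778 to 83468485, had 22.1 CPM in femur and 20.5 in mandible of batch A, and 15.3 and 20.6 CPM in batch B. Its log2 difference was 0.14 with a standard error of 0.207. Femur replicate 2 was the lowest library in Peak_9467 and Peak_9448, and mandible replicate 2 in Peak_9463.

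In the Ccl2 and Ccl7 cluster femur replicate 2 lay below the other libraries in most peaks. Peak_9372, from 81925955 to 81927010, had 49.3 CPM in femur and 48.9 in mandible of batch A, and 36.2 and 48.3 CPM in batch B. Both mandible values were just under the higher femur value. The log2 difference was 0.19 with a standard error of 0.154 and a 95% interval from -0.14 to 0.51, and within batches it was -0.011 and 0.41. Peak_9369 and Peak_9370 lie 166 bp apart. Peak_9369 had 16.3 CPM in femur and 15.7 in mandible of batch A, and 14.3 and 19.5 CPM in batch B. Peak_9370 had 18.8 and 17.0 CPM in batch A and 14.8 and 23.0 CPM in batch B. In both of these peaks mandible replicate 2 was highest and femur replicate 2 lowest. Peak_9373, from 81929220 to 81930201, had the lowest unadjusted p of all members, 0.0654 from edgeR. It had 9.02 CPM in femur and 9.89 in mandible of batch A, and 6.45 and 11.6 CPM in batch B, so that the sites did not overlap. Its log2 difference was 0.48 with a standard error of 0.244 and a 95% interval from -0.034 to 0.99.

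Over the Ccl2 and Ccl7 cluster, 9 of the 10 peaks had a positive difference of mandible against femur and 1 a negative one, and the median was 0.19 on the log2 scale, where 49.1% of all peaks were positive. Without femur replicate 2, 5 were positive and 5 negative, and the median was 0.029. TMM normalization and DESeq2 gave 6 positive peaks each. Scaling by library size alone gave 5, and moved the median of all peaks to -0.12. Summed over the 10 peaks, batch A had 127 CPM in femur and 119 in mandible, and batch B had 96.7 and 135 CPM. Means were 112 ± 21.4 CPM for femur and 127 ± 11.3 CPM for mandible (SD, n = 2 each), and the sites overlapped. Batch A gave a log2 difference of the sum of -0.088, and batch B one of 0.49.

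The Ccl5 to Ccl4 cluster had 10 peaks with a positive and 23 with a negative difference, where 49.1% of all peaks were positive. Over chromosome 11, 1633 peaks were positive and 2422 negative. The median of the cluster was -0.037 on the log2 scale, against -0.044 over chromosome 11. Without femur replicate 1 the cluster had 18 positive and 15 negative peaks, and without mandible replicate 2 it had 17 and 16. Summed over its 33 peaks, batch A had 396 CPM in femur and 364 in mandible, and batch B had 325 and 353 CPM. Both mandible sums lay between the femur sums, and means were 360.3 ± 50.3 CPM for femur and 359 ± 7.89 CPM for mandible (SD, n = 2 each). Batch A gave a log2 difference of the sum of -0.12, and batch B one of 0.12. The plot of summed accessibility shows that the line of batch A falls and that of batch B rises from femur to mandible in both clusters.

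**Figure D2:**
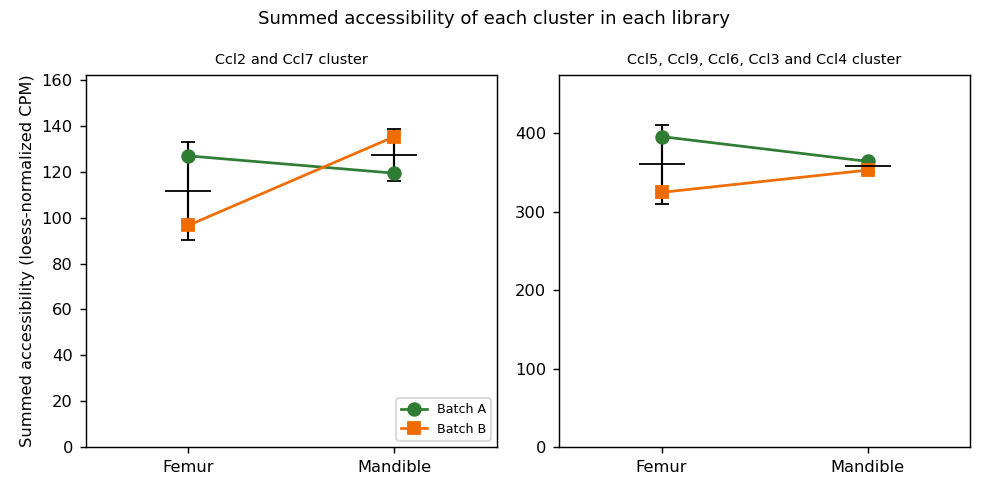
Summed accessibility of each cluster in loess-normalized CPM (vertical axis, from 0) in femur and mandible, with a line joining the libraries of 1 batch and black dashes with bars for the mean and SD of 2 libraries. Batch A and batch B slope in opposite directions in both clusters, and the sites overlap.

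The peaks of the Ccl5 to Ccl4 cluster with the lowest p were of mixed direction. Peak_9471, the last of the cluster, had counts of 52 to 230. It had 3.10 CPM in femur and 1.77 in mandible of batch A, and 2.72 and 2.05 CPM in batch B. Its log2 difference was -0.61 with a standard error of 0.333 (unadjusted p = 0.0859 from edgeR). Peak_9458 had 7.56 CPM in femur and 6.05 in mandible of batch A, and 8.52 and 5.87 CPM in batch B. Its log2 difference was -0.43 with a standard error of 0.241 (unadjusted p = 0.0898 from edgeR). In both of these peaks the mandible libraries lay below both femur libraries. Peak_9464 had 3.32 CPM in femur and 3.49 in mandible of batch A, and 2.30 and 4.48 CPM in batch B, and here the mandible libraries lay above. Its log2 difference was 0.51 with a standard error of 0.307 (unadjusted p = 0.115 from edgeR). Over all members, both mandible libraries lay above both femur libraries in 5 of the 43, where 13.3% of all peaks showed this, and below in 5, where 13.8% of all peaks did.

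As over all peaks, the difference between sites mostly changed sign from batch A to batch B. It kept its sign in 16 of the 43 members, or 37.2%, where 42.3% of all peaks kept it. Mandible was higher in both batches in 5 members, where 20.3% of all peaks were, and lower in both in 11, all in the Ccl5 to Ccl4 cluster, where 22% of all peaks were. In batch A mandible was lower than femur in 32 of the 43 members, or 74.4%, against 50.6% of all peaks and 43.3% of those on chromosome 11. In batch B mandible was higher in 26, or 60.5%, against 49.0% of all peaks and 36.9% of those on chromosome 11. The plot of differences by peak sets these values beside the fitted ones.

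**Figure D3:**
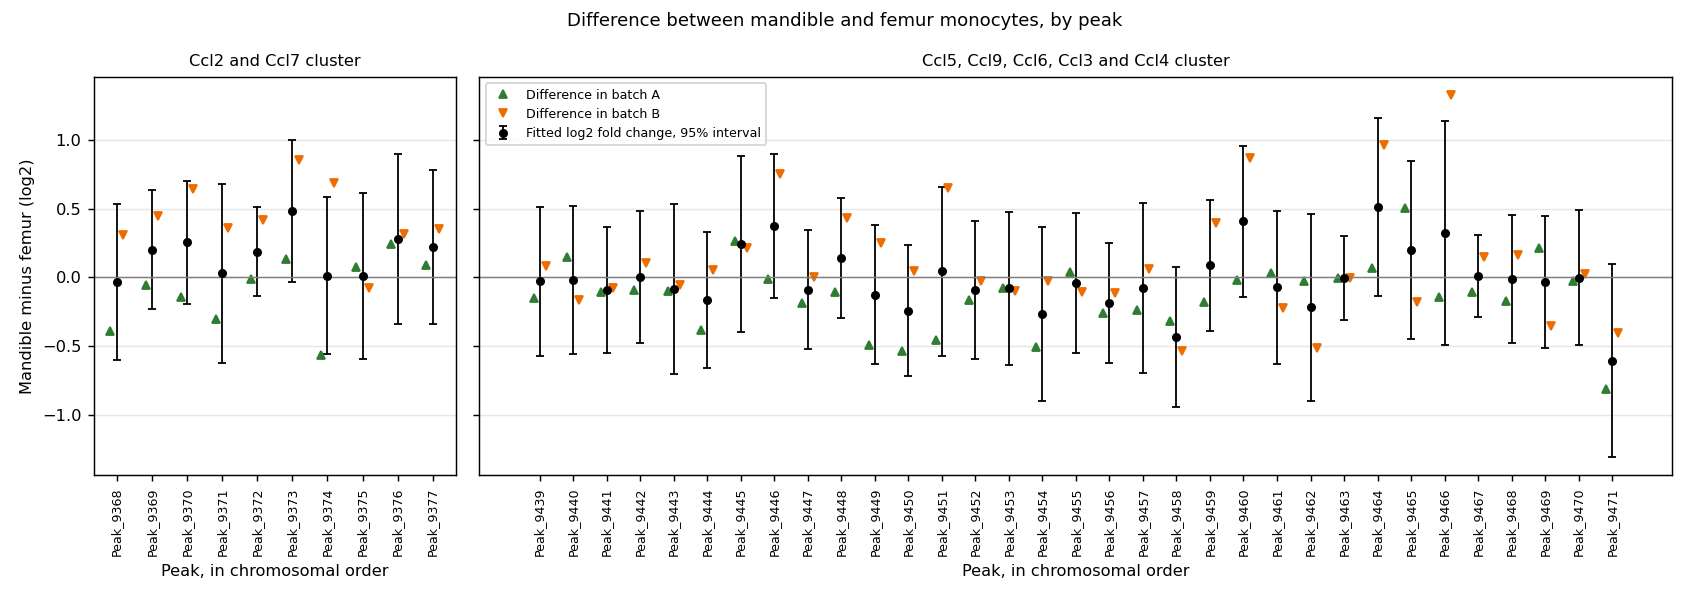
Log2 difference of mandible minus femur (vertical axis) for each of the 43 peaks in chromosomal order (horizontal axis), with the fitted log2 fold change and its 95% interval in black and the differences in batch A and batch B as triangles. All 43 intervals include 0, and the batch B difference of Peak_9466, 1.32, lies farthest from 0.

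Femur replicate 2 was the most deviant library. Over all peaks its log2 deviation from the mean of the other 3 had an SD of 0.419, against 0.232 to 0.318 for the others, and it was the deepest, with 75294068 counts in peaks against 27464565 to 44065130. It was the lowest library in 8 of 10 peaks of the Ccl2 and Ccl7 cluster. In the Ccl5 to Ccl4 cluster it was the lowest in 12 of 33. This compares with 32.6% of all peaks and 23.3% of those on chromosome 11. It was the highest in 0 of 10 and 7 of 33, against 33.1% of all peaks and 46.7% of those on chromosome 11. Its median log2 deviation was -0.26 in the Ccl2 and Ccl7 cluster and -0.074 in the Ccl5 to Ccl4 cluster, against 0.011 over all peaks and 0.12 over chromosome 11.

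Peak_9466, named after its values were seen, deviated most. It lies 404 bp before Peak_9467, from 83536825 to 83538574. It had 19.7 CPM in femur and 17.9 in mandible of batch A, and 5.17 and 12.9 CPM in batch B. The raw count was 410 in femur replicate 2 and 886 in femur replicate 1, although femur replicate 2 was the deeper library. The log2 deviation of femur replicate 2 from the mean of the others was -1.68 in Peak_9466 and -0.29 in the neighbouring Peak_9467, as the plot of these deviations against peak length shows. The log2 difference of mandible against femur in Peak_9466 was 0.32 with a standard error of 0.387, and within batches it was -0.14 and 1.32. With the batch as a replicate block it was 0.58 (unadjusted p = 0.0269, adjusted p = 0.99995 from edgeR). Without femur replicate 1 it was 1.60 (adjusted p = 6.08e-07 from edgeR), in a fit that called 2688 of all peaks and in which the lone femur library is assumed to vary like the mandible libraries. Without femur replicate 2 it was -0.37, in the opposite direction.

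**Figure D4:**
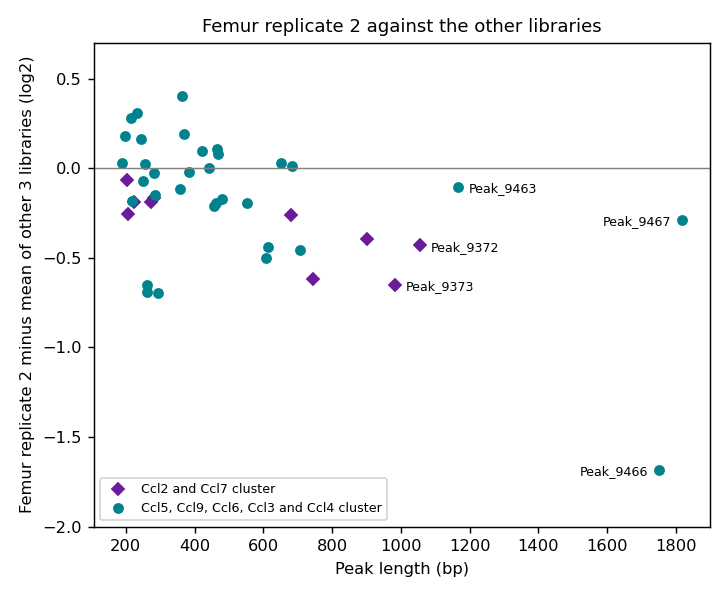
Log2 deviation of femur replicate 2 from the mean of the other 3 libraries (vertical axis) against peak length in bp (horizontal axis) for the 43 peaks, diamonds for the Ccl2 and Ccl7 cluster and circles for the Ccl5 to Ccl4 cluster. Peak_9466 stands at -1.68, and the other peaks lie between -0.70 and 0.40.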

How the data were processed

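ATAC-seq libraries of bone marrow cells from femur and mandible were compared, 2 per site. Before deposit the authors used Trimmomatic for trimming and Bowtie2 for alignment to GRCm39, removed poorly mapped and duplicate reads, called peaks with Genrich on each pair of duplicates, merged the peaks of both sites with bedtools, and deposited raw counts of single reads per merged peak from featureCounts 2.0.6, with a maximum fragment length of 1000 bp. Peaks were thus defined on pooled duplicates, and only counts were compared between libraries.

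All 57090 peaks were fitted with edgeR 4.0.16 (R 4.3.3, with limma 3.58.1 for the loess curves), using loess normalization and the quasi-likelihood test, as in the paper's methods. The pseudocount of 0.5, the span of 0.3 and site as the only term were chosen here. The filter removed 0 peaks, and Benjamini-Hochberg adjustment ran over all peaks. CPM are counts divided by these offsets. Intervals use the standard error and the degrees of freedom of the test. The fit was tested on simulated data. Counts of members ran from 51 to 3928. The alternatives were TMM, library size alone, DESeq2 1.42.0, other filters and thresholds, a replicate block, and each library left out. The numbers pair the libraries, since same-numbered libraries share a batch, and their deviations from the site means had a correlation of -0.167 over peaks.

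The members, the list of motifs and the tests were chosen with earlier results of these data known. Peaks named were the 3 with the highest mean CPM and the 3 with the lowest p in each cluster. The parts of the naming rule for peaks at gene starts and for peaks most like that of Ccl3, other chemokine and receptor genes, and marker genes need a GRCm39 annotation and were not analysed here.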

Additional observations from a re-analysis of the deposited data

How the results depend on the processing

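At an unadjusted p-value under 0.05, 1 member passed with TMM and 2 with library size alone, all lower in mandible, where 4.54% and 5.71% of all peaks passed. The replicate block passed 1 member, higher in mandible, where 2.96% of all peaks passed. DESeq2 passed 0, where 2.81% of all peaks passed, and gave 17 of the 43 no adjusted p-value. Over the alternatives that used all 4 libraries, 0 member peaks passed an adjusted p-value under 0.05, also at thresholds of 0.01 and 0.1. Leaving out each library gave 0 to 1, the 1 being Peak_9466 without femur replicate 1. The median log2 fold change of the Ccl5 to Ccl4 cluster was -0.22 with library size alone, which moved the median of all peaks to -0.12. With each library left out, the cluster median ran from -0.13 without femur replicate 2 to 0.074 without femur replicate 1. Peak_9463, near 0 throughout, turned positive with TMM (0.11), DESeq2 (0.12) and library size alone (0.0076). With each library left out it ran from -0.087 to 0.083, Peak_9467 from -0.18 to 0.24, Peak_9372 from -0.024 to 0.43, Peak_9448 from -0.11 to 0.43 and Peak_9466 from -0.37 to 1.60. The cause was not tested. Over 11 named peaks and 11 alternatives, 110 values kept their direction and side of the threshold, 10 reversed and 1 passed the threshold. The filter of at least 1 count kept the same peaks as the main fit, so its values could not differ. The filter of at least 10 counts in every library gave nearly the same values. The 11 alternatives also include the crossed pairing described below. With the replicate block, 0 members were called (57 of all peaks, against 4 without it), and the cluster medians were 0.20 and -0.036. The block changed no call of a member. A crossed pairing, chosen after seeing the data, called 0 members and 207 of all peaks. At an unadjusted p-value under 0.05 it passed 2 members, both higher in mandible, where 5.91% of all peaks passed. Corrections for GC content, alone and with the replicate block, were not run because a GRCm39 genome was not used here. The median distance from the log2 fold change to either bound of its interval was 0.522 over the members.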

Other observations

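Long peaks of low level like Peak_9466 were rare, and several of them were low in femur replicate 2. Of the 8551 peaks of at least 1000 bp, 52 had at most 10 CPM per kb, a limit chosen after the values were seen. Their median log2 deviation in femur replicate 2 was -0.81, with quartiles of -1.22 and -0.12, and this library was the lowest in 34 of the 52. The limit was set on the mean over all libraries, femur replicate 2 among them. A peak low in that library therefore entered the set more easily, and Peak_9466 is itself a member, so part of this deviation comes from the selection. Over the other 8499 long peaks the median was 0.019. Among all peaks, 234 were as low as Peak_9466 or lower in that library relative to the others, 8 of them at least 1000 bp long.

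The peaks nearest to the clusters on the outside were Peak_9367 and Peak_9378 beside the Ccl2 and Ccl7 cluster, with log2 fold changes of 0.11 and -0.34, and Peak_9438 and Peak_9472 beside the Ccl5 to Ccl4 cluster, with 0.16 and -0.19. None passed an adjusted p-value under 0.05 in edgeR, and none of the 4 had an unadjusted p-value below 0.176.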
